A study of Mus musculus with 10 samples.

Results

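The nuclear genes that encode subunits of the mitochondrial respiratory chain and ATP synthase were followed across the cells of mouse livers carrying metastases of colorectal cancer. Members were taken by symbol alone from the 32285 genes of the count tables: the Nduf a, b, c, s and v subunits, the 4 Sdh subunits, and every symbol that starts with Uqcr, Cox4 to Cox8 or Atp5. This gave 85 genes, of which 38 belong to complex I, 4 to complex II, 8 to complex III, 18 to complex IV and 17 to complex V. Their UMIs (unique molecular identifiers, the counted molecules) made up 1.65% to 1.88% of each library.

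The study profiled dissociated livers by droplet single-cell RNA sequencing after a sort for viable, 7AAD-negative single cells without any antibody. Control livers 11 and 25 came from mice given a control lentiviral vector (LV), IFNa livers 18 and 23 from mice given an IFNa LV, and liver 22 from the IFNa + aCTLA4 group, which had anti-CTLA-4 as well and is called the combination below. All 5 livers carried metastases. The labels name neither strain, age nor genotype, and the title speaks of macrophages engineered in vivo. Whether every liver is from a different mouse is not stated, so the p-values reflect only variation among these libraries, part of which could be technical, and the combination rests on 1 library.

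Complexes I to IV pass electrons from NADH and succinate to oxygen, with protons pumped across the inner mitochondrial membrane by complexes I, III and IV, and complex V, the ATP synthase, uses that gradient to make ATP. Complexes I, III, IV and V combine subunits of the nuclear and the mitochondrial genome, whereas complex II is encoded in the nucleus alone. Several complex IV and ATP synthase subunits exist as paralogues, and some of these isoforms are known mainly from muscle, lung or testis.

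Cells were assigned by fixed marker genes, none of which is a member. Of 28039 barcodes 27771 passed the cell filters, 19462 fell into exactly 1 class, 4818 into none, and 3491 into several and were left out. Libraries ranged from 10464216 to 69856071 UMIs, with Control 25 the smallest, and 398 barcodes occurred in more than 1 library. A T cell receptor beta chain was found in 80.9% to 97.2% of gated T cells and in at most 1.99% of the B, NK, monocyte or epithelial cells of any liver. The epithelial class was named by Epcam, Krt8, Krt18, Krt19, Cldn7 and Cldn4, and Krt18 was found in 96.7% of its cells. UMI counts in a pool of cells cannot tell fewer molecules per mitochondrion from fewer mitochondria per cell.

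The promoters of these genes are known for sites of the factors NRF1 and GABPA, so windows that held such a motif are shown before the values. RefSeq promoter entries (GRCm38.p6) matched 67 of the 85 symbols. Within the 250 bases before the start, searched on both strands, the NRF1-type motif, whose letters are the capitals of the windows of Atp5g2, Ndufa11, Cox6a1 and Atp5k, occurred in 4 of the 67 (5.97%) and in 237 of 27025 genes (0.877%). The letters CCGGAAGT (GABPA type) occurred in 3 of the 67 (4.478%) and in 873 genes (3.23%). The windows are printed 5′ to 3′ on the gene's strand with the motif in capitals, and distances to the start are counted from the motif's first base. The first sits at chr15:102671060-102671109 on the minus strand, with its motif beginning 42 bases before the start of Atp5g2, a gene for the membrane ring of ATP synthase. The second, at chr17:56717682-56717731 on the plus strand, has a motif that begins 60 bases before the start of Ndufa11, a complex I accessory subunit. The third is the window of Uqcrh, the complex III hinge protein, at chr4:116075071-116075101 on the minus strand, where the GABPA letters lie on the opposite strand and begin 11 bases before the start. These 3 genes recur among the treatment results. The GABPA-type windows of Atp5h and Uqcr11 are not printed. Neither gene passed a treatment test or the myeloid against lymphoid test (edgeR adjusted p = 0.2561 and 0.1592 in the latter). Whether a motif goes with a change was not tested.
Atp5g2: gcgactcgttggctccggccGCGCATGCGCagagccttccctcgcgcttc
Ndufa11: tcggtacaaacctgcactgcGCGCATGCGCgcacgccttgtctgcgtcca
Uqcrh: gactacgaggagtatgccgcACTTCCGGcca
The other 2 NRF1-type windows belong to Cox6a1, whose motif begins 162 bases before the start at chr5:115349091-115349140, and to Atp5k, whose motif begins 50 bases before the start at chr5:108434420-108434469, both on the minus strand. They are shown because Cox6a1 is the partner in the isoform pair described below, and Atp5k completes the NRF1-type set.
Cox6a1: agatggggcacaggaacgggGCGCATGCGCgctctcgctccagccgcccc
Atp5k: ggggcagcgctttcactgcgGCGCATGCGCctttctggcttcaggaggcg

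Over cells of all depths, epithelial cells and type 1 conventional dendritic cells (cDC1) carried the most subunit RNA per UMI, and B cells, neutrophils and plasma cells the least. The summed share is the percentage of a class's UMIs in the 85 genes. It was 2.37% and 1.95% in the epithelial cells of Control 11 and 25, 2.32% and 2.29% in those of IFNa 18 and 23, and 2.19% in the combination, a mean of 2.23% ± 0.167 (SD, n = 5). The cDC1 of 4 livers gave 2.15% ± 0.0777 (SD, n = 4), a range of 2.07% to 2.25% that lies inside the epithelial one. Regulatory T cells (1.92% ± 0.0899), plasmacytoid dendritic cells (1.91% ± 0.0965), type 2 conventional dendritic cells (cDC2, 1.84% ± 0.0846) and natural killer (NK) cells (1.82% ± 0.138) followed, each with n = 5 and with overlapping ranges.

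CD8 T cells had 1.79% ± 0.111, classical monocytes 1.75% ± 0.209, C1q macrophages 1.68% ± 0.0726 and CD4 T cells 1.67% ± 0.143 (SD, n = 5 each), and these 4 ranges overlapped too. Non-classical monocytes held 1.49% ± 0.0764 (n = 5) and mature Ccr7 dendritic cells 1.45% ± 0.118 (n = 4). B cells reached 1.29% and 1.13% in Control, 1.30% in both IFNa livers and 1.38% in the combination, below every CD8 T cell, regulatory T cell and NK cell value. Neutrophils varied most, from 0.715% in the combination (12 cells) to 1.78% in Control 25 (26 cells). The 2 livers with enough plasma cells, IFNa 23 (22 cells) and the combination (165 cells), gave 0.894% and 1.07%. Control 11 and 25 held only 3 and 6 plasma cells, so this class has no Control value. Immunoglobulin transcripts took 53.2% to 56.6% of plasma cell UMIs, and with these left out of the denominator, a choice made after seeing the data, the plasma shares were 2.06% and 2.28%.

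**Figure D1:**
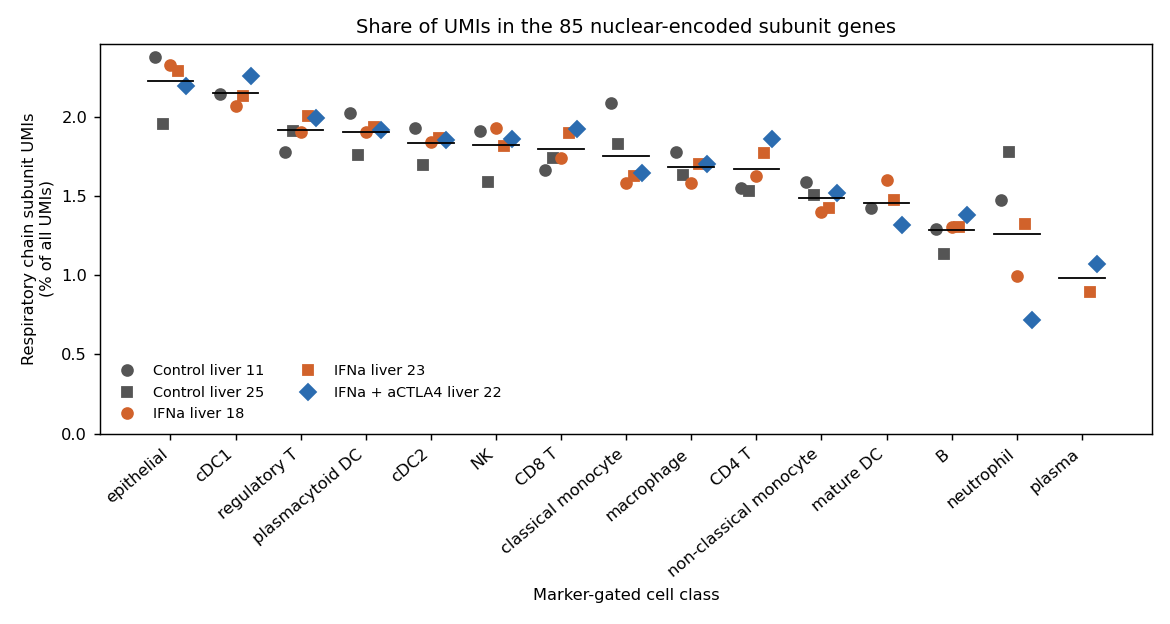
Share of all UMIs of a class in the 85 subunit genes (percent, vertical axis) by marker-gated class, 1 point per liver with at least 10 cells and a line at the mean. Epithelial and cDC1 values sit at or above 1.95%, B cell values at or below 1.38%, and the 2 Control points of classical monocytes lie above the other 3.

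Gene by gene, each class was compared with the mean of the other classes within livers by edgeR's quasi-likelihood test with Benjamini-Hochberg adjustment. A gene counted as different at an adjusted p under 0.05. These contrasts use TMM scaling between pools, so their log2 differences need not match ratios of shares or of the CPM printed beside them. The spread of a gene was pooled over all classes, so a very small p-value still rests on at most 5 livers per class. Of the 85 members 79 passed the filter on low counts; the other 6 are Cox4i2, Cox7a1, Cox7b2, Cox8b, Cox8c and Ndufa4l2. Epithelial cells had 56 of 79 higher and 8 lower, where 42.3% and 29.0% of all 13230 genes tested were higher and lower. In cDC1 50 of 79 were higher and 0 lower, against 20.8% and 15.2% of all genes, and 59 had an unadjusted p under 0.05. DESeq2 called 56 higher and 1 lower in this class. Plasma cells, with pools from IFNa 23 and the combination but from no Control liver, had 43 higher and 0 lower (23.1% and 15.6% of all genes). These counts are on the TMM scale, with 47 at an unadjusted p under 0.05. DESeq2 called 56 higher and 0 lower in this class. The median log2 difference of the 79 was 0.48 in epithelial cells, 0.35 in cDC1 and 0.42 in plasma cells.

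B cells stood at the other end, with 60 of 79 lower and 3 higher against backgrounds of 21.7% and 35.4% and a median log2 difference of -0.45. Neutrophils had 48 lower and 5 higher (21.0% and 21.9% of all genes, median -0.53), and CD4 T cells 34 lower and 2 higher (17.5% and 26.2%, median -0.22). For NK cells the counts were 23 lower and 4 higher (20.3% and 25.7%), for regulatory T cells 21 and 6 (17.6% and 26.8%), and for CD8 T cells 11 and 7 (18.4% and 32.1%). Summed shares of NK and regulatory T cells were 1.82% and 1.92%, beside 1.75% in classical monocytes, whose counts come next. The counts of members called thus did not follow the order of the summed shares. Mature dendritic cells gave 20 lower and 5 higher (19.1% and 23.2%) and non-classical monocytes 19 and 1 (15.9% and 23.5%). By DESeq2 these were 25 lower and 7 higher in mature dendritic cells and 47 and 0 in non-classical monocytes. The latter count therefore depended on the tool.

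Among the remaining 4 classes, more members were called higher than lower, though 44 of 79 lay below 0 in plasmacytoid dendritic cells. Classical monocytes had 29 higher and 4 lower (29.5% and 22.4% of all genes), macrophages 18 and 4 (28.3% and 18.9%), cDC2 23 and 1 (23.6% and 12.4%) and plasmacytoid dendritic cells 9 and 6 (22.5% and 14.6%). In these 4 classes the share of members called higher was therefore 36.7%, 22.8%, 29.1% and 11.4%, which is below the background in macrophages and plasmacytoid dendritic cells.

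**Figure D2:**
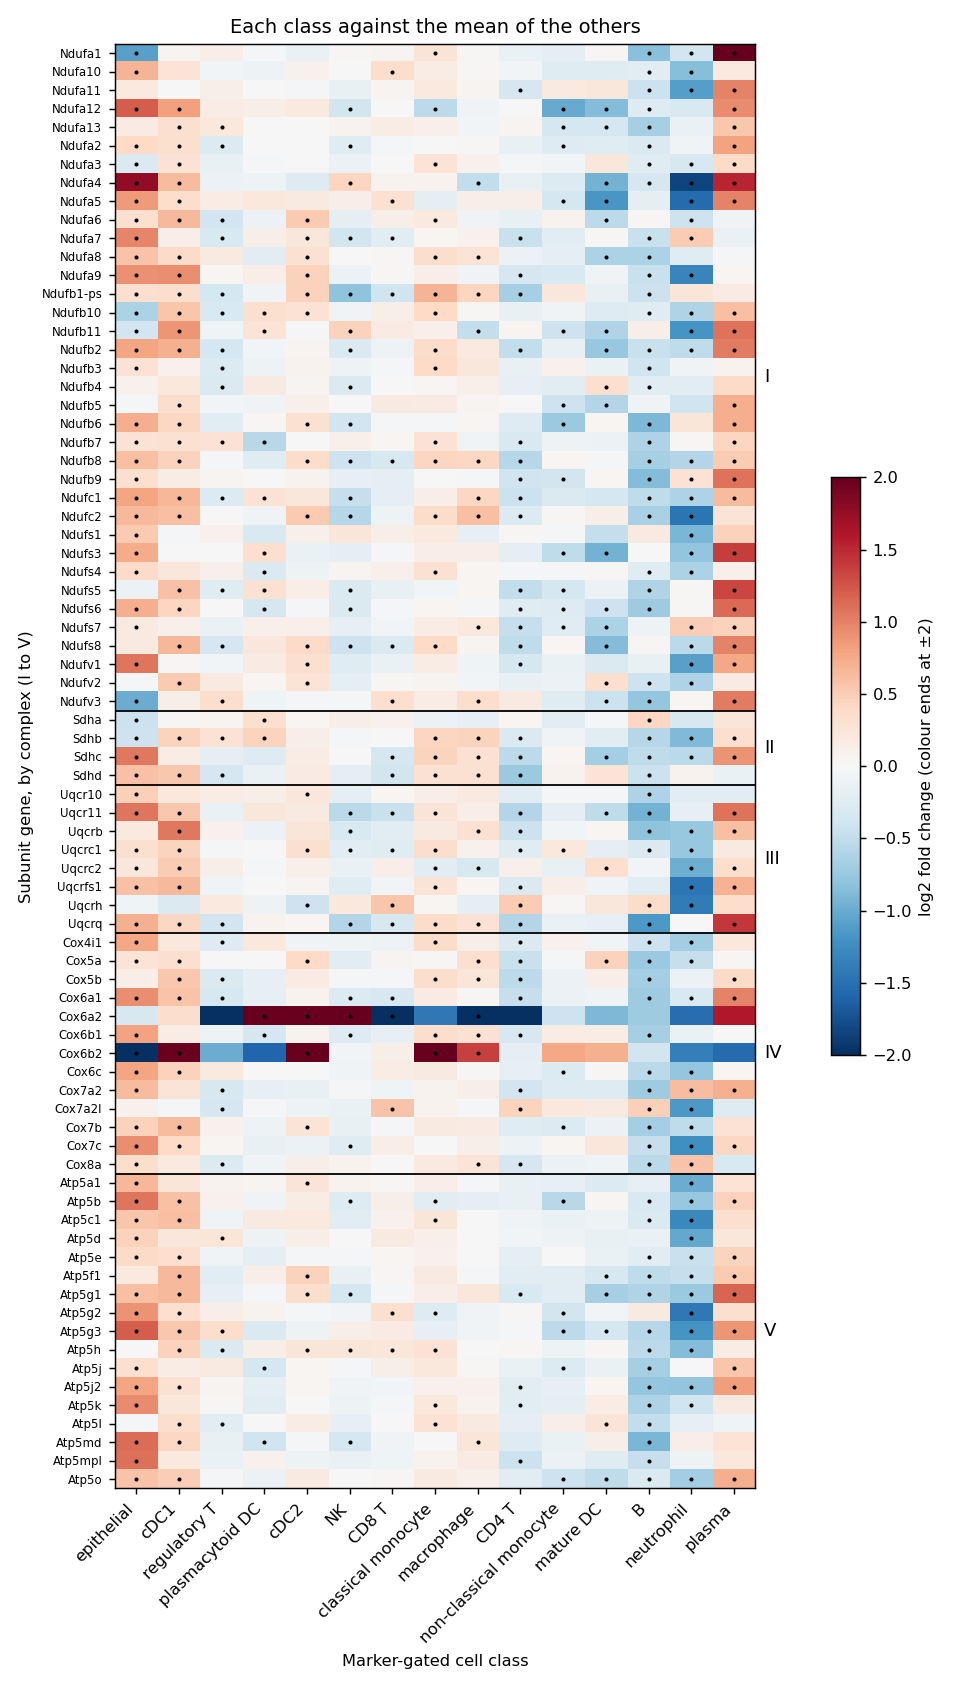
Log2 difference between each class and the mean of the other classes (colour, ending at ±2) for 78 tested subunit genes, grouped by complex I to V from top to bottom, with a dot where the adjusted p was under 0.05. Red dominates the epithelial, cDC1 and plasma columns, blue the B cell and neutrophil columns, and the strongest square is Cox6a2 in plasmacytoid dendritic cells.

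Within complex I the epithelial excess was uneven. Ndufa4, a small subunit first assigned to complex I and since placed with complex IV, had 875 and 526 CPM (UMIs scaled to a common total per pool) in the Control livers, 863 and 628 with IFNa and 804 with the combination, against an average of the other classes that was lower by 1.78 ± 0.10 in log2 (SE, edgeR adjusted p = 2.957e-24). Every epithelial pool was above every NK pool, the class with the next listed value of 383 ± 36.5 CPM (SD, n = 5). Ndufa12, an accessory subunit of the NADH-oxidising arm, was 1.21 ± 0.10 higher. Ndufa1 was lower by -1.08 ± 0.11 and Ndufv3 by -0.99 ± 0.10, with 44.3 to 103 and 70.5 to 77.6 CPM in the 5 epithelial pools. So accessory subunits of 1 complex stood on both sides of the average in 1 class.

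Neutrophils were low in the same Ndufa4, at 92.6 and 85.2 CPM in the Control livers, 48.4 and 106 with IFNa and 51.5 with the combination, a log2 difference of -1.83 ± 0.19 (edgeR adjusted p = 1.361e-12). Ndufa5 (-1.53 ± 0.22) and Ndufc2 (-1.46 ± 0.15), both complex I accessory subunits, were also lower there, while Cox8a (0.56 ± 0.11), Cox7a2 (0.61 ± 0.12) and Ndufa7 (0.51 ± 0.11) were higher. Plasma cells showed the largest value for Ndufa1, with 275 and 309 CPM in the 2 livers, beside a mean of 156 CPM over the other classes. Its log2 difference of 2.22 ± 0.13 is on the TMM scale and is larger than these CPM give. Their total includes the immunoglobulin UMIs. Ndufa12 was low in non-classical monocytes (-1.01 ± 0.15) and in classical monocytes (-0.52 ± 0.11). The gene annotated as Ndufb1-ps was high in classical monocytes (0.68 ± 0.09, 345 to 496 CPM) and low in NK cells (-0.81 ± 0.11, 163 to 254 CPM).

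The catalytic subunits of complex I, which carry the flavin and the iron-sulphur clusters, followed the class order only in part. Ndufv1, the flavin-binding subunit, was highest in epithelial cells at 103 ± 20.1 CPM and ranged in the other classes from 32.1 ± 15.2 in neutrophils to 74.8 ± 4.40 in cDC2. Ndufs1, the largest subunit of the peripheral arm, had 40.9 ± 10.5 CPM in epithelial cells, close to NK cells at 47.1 ± 6.38 and regulatory T cells at 41.5 ± 2.51. The 5 epithelial Ndufs1 values, 32.9 to 58.7, overlapped those of every lymphoid class.

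In complex II the summed share was 0.0333% ± 0.00514 of UMIs in epithelial cells and 0.0312% ± 0.00113 in B cells. It was 0.0448% ± 0.00500 in plasmacytoid dendritic cells (SD, n = 5 each). One gene, Sdha, ran against the epithelial pattern. Sdha, the flavoprotein of complex II, had 64.2 ± 10.1 CPM in epithelial cells, 126 ± 11.4 in B cells and 134 ± 16.6 in plasmacytoid dendritic cells (SD, n = 5 each). Its epithelial values overlapped with neither. B cells, low in most members, were higher in Sdha by 0.41 ± 0.08 in log2 (edgeR adjusted p = 5.17e-06). Sdhb, the iron-sulphur subunit, was higher in plasmacytoid dendritic cells (0.44 ± 0.08), macrophages (0.44 ± 0.08) and classical monocytes (0.42 ± 0.07). Sdhd, a membrane anchor, was lower in CD4 T cells by -0.74 ± 0.12.

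Complex III subunits differed in both directions among lymphoid classes. Uqcrq, a small membrane subunit, was lower in B cells by -1.14 ± 0.10, in CD4 T cells by -0.59 ± 0.10 and in NK cells by -0.59 ± 0.10, with 90.1 to 124 CPM in the B cell pools. Uqcr11 was lower in B cells by -0.94 ± 0.10. Uqcrh went the other way, at 0.56 ± 0.09 higher in CD8 T cells, 0.50 ± 0.10 in CD4 T cells and 0.37 ± 0.10 in B cells (edgeR adjusted p at most 0.0006114). The core protein Uqcrc1 had 67.4 CPM on average in plasma cells (n = 2), 82.1 ± 22.7 in neutrophils and 190 ± 24.6 in cDC1 (n = 4), the highest class. Uqcrb led cDC1, at 1.05 ± 0.11, with 344 to 454 CPM.

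Complex IV genes repeated the lymphoid pattern of Uqcrh in 1 case, Cox7a2l, a subunit relative tied to the joining of complexes III and IV. Cox7a2l was higher by 0.56 ± 0.10 in CD8 T cells, 0.44 ± 0.10 in CD4 T cells and 0.48 ± 0.10 in B cells (edgeR adjusted p at most 0.0002447). Cox4i1, the common regulatory subunit, reached 983 ± 111 CPM in epithelial cells and 482 ± 49.6 in B cells, where the lowest epithelial value, 838, stood above the highest B cell value, 531. Cox5a was 0.46 ± 0.11 higher in mature dendritic cells, at 373 ± 38.0 CPM (n = 4).

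In complex V the catalytic beta subunit Atp5b had 841 and 733 CPM in epithelial cells of the Control livers, 834 and 765 with IFNa and 691 with the combination. The highest of any other class was 644, in cDC1. Atp5b was lower in non-classical monocytes by -0.56 ± 0.10 (284 ± 44.0 CPM) and in classical monocytes by -0.23 ± 0.09. Atp5md, a small membrane subunit, was lower in B cells by -0.91 ± 0.11.

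The weight of each complex among subunit UMIs differed modestly between classes. These weights are not corrected for transcript length, so each complex is compared with itself. Complex V took 36.1% ± 0.677 of subunit UMIs in epithelial cells, 34.1% ± 0.179 in B cells and 29.1% ± 0.803 in neutrophils (SD, n = 5 each), and these ranges did not overlap. Complex II took 1.497% ± 0.213 in epithelial cells and 2.44% ± 0.210 in B cells. Complex IV held 28.3% ± 1.51 in plasmacytoid dendritic cells and 29.2% ± 0.363 in neutrophils against 23.3% ± 0.328 in B cells. The plasmacytoid value includes the single gene Cox6a2, at a mean of 920 CPM in that class, and was not recomputed without it.

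The member with the largest class difference was Cox6a2 in plasmacytoid dendritic cells, the isoform of cytochrome oxidase subunit 6a known from heart and skeletal muscle. Its levels were 1277 and 1348 CPM in the Control livers, 755 and 586 with IFNa and 635 with the combination. In every other class its mean was at most 9.03 CPM, the NK value. The log2 difference from the other classes was 9.11 ± 0.19 (edgeR adjusted p = 2.271e-46). At least 1 Cox6a2 UMI was seen in 225 of 358 plasmacytoid dendritic cells (62.9%, median 9853 UMIs per cell), in 8 of 3081 CD8 T cells (0.26%, median 6720) and in 9 of 4424 B cells (0.203%, median 4039). NK cells had 31 of 1192 (2.6%, median 5544) and cDC2 17 of 524 (3.24%), and Cox6a2 passed the test as higher in both, by 2.47 ± 0.44 and 2.12 ± 0.49. The single value of 13.9 CPM in B cells of Control 25 rested on 12 UMIs.

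Cox6a2 outweighed Cox6a1 in these cells. Of the UMIs of the pair, Cox6a2 made up 82.4% and 83.3% in the Control livers, 73.4% and 63.9% with IFNa and 69.0% with the combination, a mean of 74.4% ± 8.43 (SD, n = 5). The share was highest in the 2 Control livers and did not overlap with the others. Outside plasmacytoid dendritic cells the mean was at most 3.02%, in NK cells, whose single livers had 0% to 6.17%. Higher single values were 7.79% in B cells of Control 25, from 12 Cox6a2 UMIs, and 6.81% in cDC2 of the combination, from 22.

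The other tissue-restricted isoforms stayed rare. Cox6b2, the isoform known from testis, made up 1.51% of the Cox6b1 and Cox6b2 UMIs in classical monocytes, 2.93% in cDC2 and 0.013% in epithelial cells, where 1 UMI was found. Cox4i2, an oxygen-dependent isoform known from lung, reached 1.98% of the Cox4 pair in plasma cells (n = 2) and 0.712% ± 0.235 in macrophages. Ndufa4l2, a relative of Ndufa4, had 19 of its 40 UMIs in macrophages. Cox8b had 4 UMIs in the whole series, Cox7b2 had 1 and Cox7a1, another muscle-type isoform, had 512. Cox8c had 0, which allows up to 3 by counting error.

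The 3 genes of the ATP synthase membrane ring, which encode 1 mature protein, were used in different proportions. Atp5g2 gave 54.3% ± 1.82 of their joint UMIs in B cells and 40.4% ± 3.85 in epithelial cells, and Atp5g3 gave 30.2% ± 2.27 and 43.4% ± 3.35. The B cell and epithelial ranges did not overlap for either gene. Atp5g1 had its lowest means in mature dendritic cells (15.4% ± 2.00, n = 4) and B cells (15.6% ± 0.748) and its highest in neutrophils (27.8% ± 8.82) and plasma cells (27.2%, n = 2), with 24.1% ± 3.99 in classical monocytes. In classical monocytes the Atp5g1 share was 20.7% in both Control livers, 29.3% and 27.5% in IFNa and 22.3% in the combination, so Control lay below the other 3 livers.

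Depth per cell was examined because classes and livers differed in it. Cells were split into those with under 3000, 3000 to 10000 and over 10000 UMIs. In CD8 T cells the mean share over livers was 1.49%, 1.67% and 1.97% in these strata, in NK cells 1.53%, 1.76% and 2.11%, and in regulatory T cells 1.65% and 2.15% in the upper 2. B cells had 1.25% and 1.26% in the lower strata and 1.48% above 10000 UMIs. The share was higher in deeper T and NK cells, while B cells of Control 25 had 1.16% from 3000 to 10000 UMIs and 1.05% above. In regulatory T cells 36.7% to 51.6% of cells had a UMI of a fixed division marker, and leaving those cells out lowered their shares to between 1.66% and 1.82%.

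Epithelial cells were 63.6% to 68% dividing by the same measure, and their median depth ran from 3053 UMIs in IFNa 23 to 17516 in Control 25. Their share without dividing cells was 1.72% to 2.11%. Between 3000 and 10000 UMIs Control 11 gave 2.10%, IFNa 18 gave 2.17%, IFNa 23 gave 1.70% and the combination 1.89%. Above 10000 UMIs the mean share was 2.29% in epithelial cells, 2.17% in cDC1, 2.15% in regulatory T cells and 2.11% in NK cells. The cDC1 had a median of 16775 UMIs and were 27.3% to 34.5% dividing, and without dividing cells their share was 1.95% to 2.28%. The part of depth and division in the order of the classes was not tested beyond these values.

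**Figure D3:**
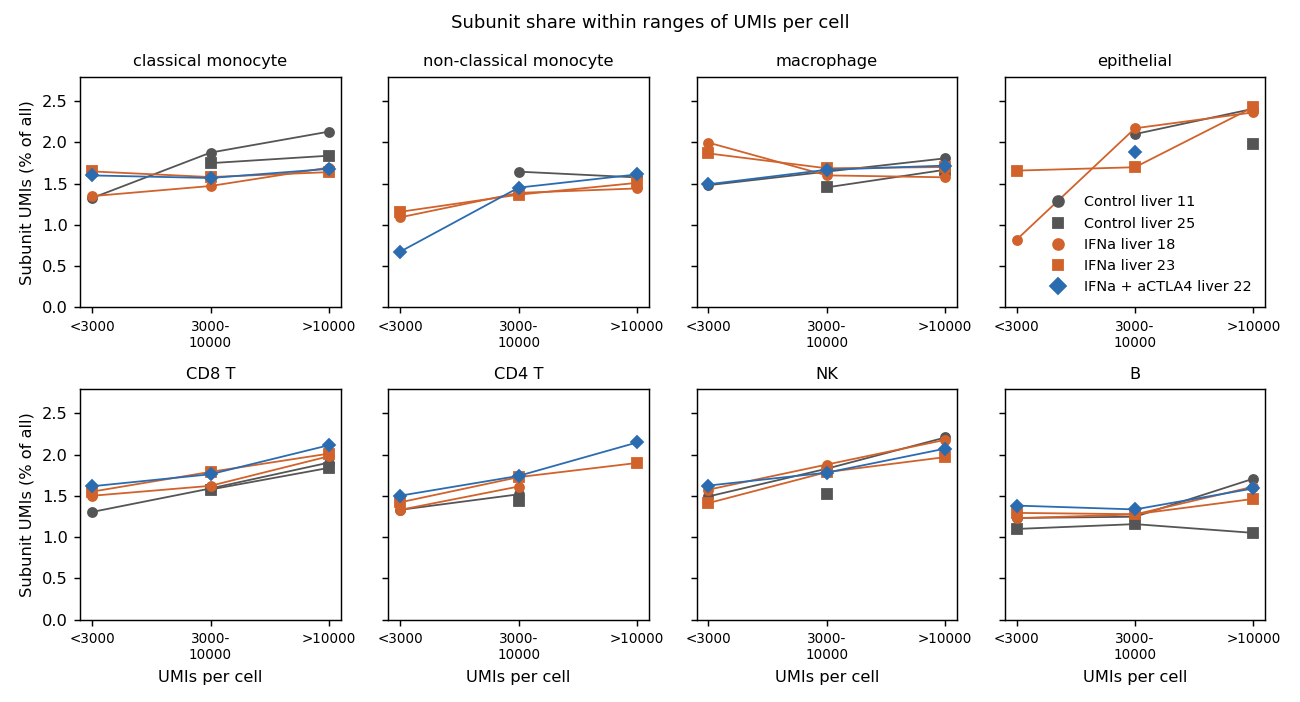
Share of UMIs in the 85 genes (percent, vertical axis) within 3 ranges of UMIs per cell (horizontal axis) for 8 classes, 1 point per liver and range that had enough cells, joined within a liver. T and NK lines rise with depth in the livers that have all ranges, and in classical monocytes the 2 Control points lie above the others in the upper 2 ranges.

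The treatment comparison asked whether subunit RNA differed with IFNa gene delivery, 2 livers against 2. Summed shares get no test here, and an exact permutation test of 2 against 2 could not go below 0.333. In classical monocytes the share was 2.09% and 1.83% in the Control livers, 1.58% and 1.62% with IFNa and 1.64% with the combination, a ratio of IFNa to Control of 0.819. Neutrophils gave 1.47% and 1.78% against 0.995% and 1.33% (0.714) and non-classical monocytes 1.59% and 1.503% against 1.40% and 1.43% (0.913). The IFNa livers lay below both Control livers in these 3 classes.

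In CD4 T cells the share was 1.55% and 1.53% in the Control livers and 1.62% and 1.77% with IFNa (ratio 1.10), and in B cells the ratio was 1.08, with IFNa above Control in both. For CD8 T cells (1.67% and 1.74% against 1.74% and 1.89%), NK cells, regulatory T cells, macrophages, cDC2, plasmacytoid dendritic cells and epithelial cells the groups overlapped. Across 11 settings the classical monocyte ratio ran from 0.769 to 0.860 and the groups stayed apart in 11. B cells, CD4 T cells and neutrophils were likewise apart in 11 of 11, non-classical monocytes in 10 of 10, CD8 T cells in 5 of 11 and regulatory T cells in 3 of 11. The classical monocyte shares in cells of over 10000 UMIs were 2.13% and 1.84% in Control against 1.69% and 1.64% in IFNa, and from 3000 to 10000 UMIs they were 1.87% and 1.75% against 1.47% and 1.58%. Below 3000 UMIs Control 11 had 1.32% and the IFNa livers 1.35% and 1.65%, so the Control value was the lowest there, from 30, 64 and 18 cells, while Control 25 had only 2 such cells.

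A list of 15 genes induced by tissue dissociation, such as the immediate early genes Jun and Junb, moved beside some of these shares. Its part of UMIs in B cells was 0.651% and 0.642% in the Control livers, 0.448% and 0.390% with IFNa and 0.418% with the combination. The IFNa over Control ratio of this list was 0.648 in B cells, 0.761 in CD4 T cells, 0.764 in non-classical monocytes and 0.831 in macrophages, with the groups apart in these and in 3 further classes of 12 (regulatory T cells, NK cells and cDC2). In classical monocytes the groups overlapped, at 1.18% and 1.14% against 1.05% and 1.19%, and in neutrophils too. In edgeR 2 of the 15 fell in B cells, Jun (-0.93) and Junb (-1.25), and 2 rose in classical monocytes, Jun (0.71) and Hsp90aa1 (0.66). The part of this list in the shares of the respiratory chain was not tested.

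By complex, classical monocytes of IFNa livers were below both Control livers in complex I (ratio 0.842), III (0.789), IV (0.831) and V (0.790). Complex II overlapped, at 0.0442% and 0.0390% of UMIs in the Control livers and 0.0352% and 0.0402% with IFNa.

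Gene by gene, 11 of 81 members tested fell in classical monocytes of IFNa livers and 0 rose (edgeR quasi-likelihood test, Benjamini-Hochberg adjustment over all genes), where 2.99% of all 11630 genes tested fell. At an unadjusted p under 0.05 there were 31, and 65 of 81 lay below 0. The median log2 change of the 81 was -0.23, beside 0.02 over all genes. Of the 11, 5 were complex I, 2 complex III, 2 complex IV and 2 complex V genes, while the 4 complex II genes gave 0.

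Cox7a2l fell most among the abundant members. It had 263 and 228 CPM in the Control livers, 114 and 113 with IFNa and 126 with the combination, a log2 change of -1.10 ± 0.14 for IFNa (edgeR adjusted p = 0.002923). Ndufb11, a supernumerary subunit of the membrane arm, had 264 and 212 CPM against 119 and 129, with 140 in the combination, and fell by 0.93 ± 0.16. Ndufb5, from the same arm, went from 186 and 152 to 88.6 and 94.8 CPM, with 91.9 in the combination, and fell by 0.87 ± 0.15 (edgeR adjusted p = 0.01062). In all 3 genes the IFNa and combination livers lay together below both Control livers.

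Uqcrh, whose promoter window is shown above, had 498 and 439 CPM in the Control livers, 276 and 289 with IFNa and 292 with the combination, and fell by 0.71 ± 0.14 (edgeR adjusted p = 0.0209). Uqcrfs1, the Rieske iron-sulphur protein of complex III, fell by 0.59 ± 0.15, and the ATP synthase subunits Atp5f1 and Atp5c1, of its peripheral and central stalks, by 0.69 ± 0.15 and 0.60 ± 0.14. Ndufa6 and Ndufb10 had falls of 0.60 ± 0.15 and 0.57 ± 0.15. Cox6b2, at 12.5 and 9.64 CPM in the Control livers and 3.36 and 3.46 with IFNa, fell by 1.73 ± 0.29 on a base of 178 and 19 UMIs in the Control livers and 25 and 18 with IFNa. Cox6a2 had a fitted log2 value of 3.73 ± 1.11 here but rested on 2 and 0 UMIs in the Control livers and 8 and 14 with IFNa, and did not pass (edgeR adjusted p = 0.07729). It is named, after its value was seen, because it is the outlying point in the plot of changes.

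The count leaned on 1 library. Without Control 11, 1 of the 11 passed, Cox7a2l, and without Control 25 or IFNa 18 the counts were 6 and 7. Cox7a2l kept an adjusted p under 0.05 in 14 of 14 alternatives, with log2 changes from -1.24 to -0.99 and adjusted p up to 0.04321, whereas Uqcrfs1 and Ndufb10 kept it in 7 of 14 each.

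**Figure D4:**
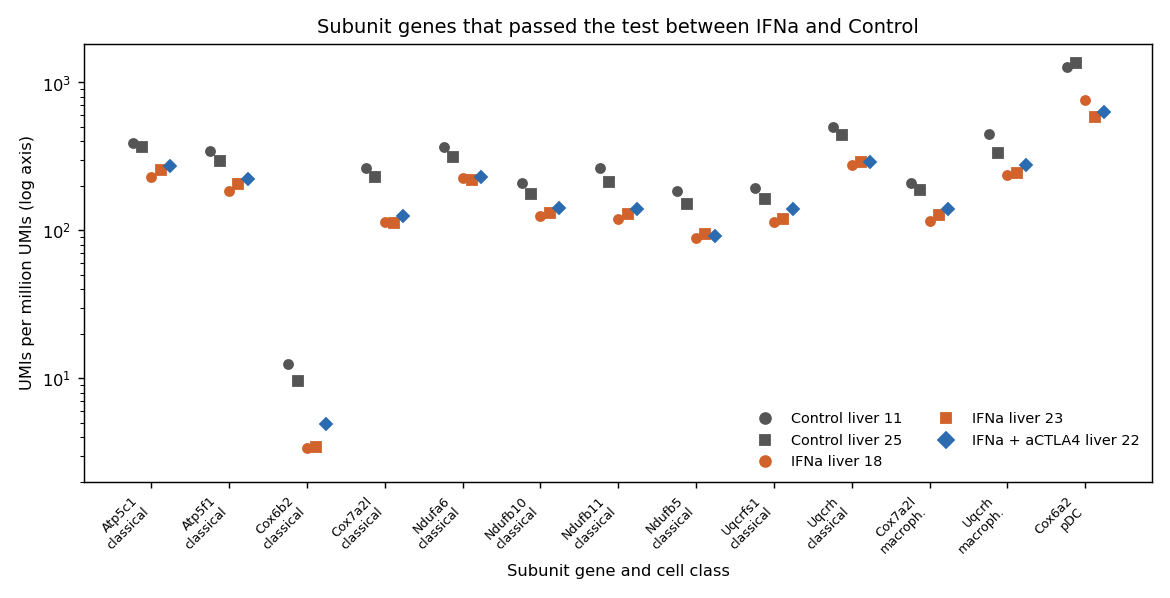
CPM (log axis) in each of the 5 livers for subunit genes that passed the test between IFNa and Control, in classical monocytes (10 genes shown), macrophages (2) and plasmacytoid dendritic cells (1). Both Control points lie above both IFNa points and the combination in each column.

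Several other measures moved with this result in classical monocytes. Cells with a UMI of a division marker made up 26.8% and 26.6% of the class in the Control livers, 11.5% and 10.9% with IFNa and 20.3% with the combination. Without them the shares were 2.00% and 1.72% against 1.58% and 1.62%, and 7 members fell. The gate marker Ly6c2, an interferon-inducible gene, had 1186 and 1281 CPM in the Control livers and 6292 and 5440 with IFNa, while the gate markers Vcan (330 and 304 against 166 and 104) and Mmp8 (97.0 and 73.6 against 20.6 and 12.3) were lower. With Ly6c2 taken out of the gate, a choice made after seeing the data, the shares were 2.10% and 1.83% against 1.60% and 1.66%. S100a8, a neutrophil marker also found in monocytes, had 322 and 238 CPM against 22.6 and 20.6, and its part in the result was not tested. Median depth was 12007 and 14157 UMIs per cell in the Control livers and 8641 and 10790 with IFNa.

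In macrophages 2 of 80 members fell and 0 rose, where 1.59% of all 11133 genes fell, so the count is near the background. They were again Cox7a2l, from 210 and 187 to 117 and 128 CPM with 140 in the combination (a fall of 0.77 ± 0.15, edgeR adjusted p = 0.0127), and Uqcrh, from 445 and 335 to 238 and 245 CPM with 279 in the combination (a fall of 0.77 ± 0.17, adjusted p = 0.02706). Neither passed without Control 11, with adjusted p of 0.1075 and 0.1717. The median change over the 80 was -0.06.

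In plasmacytoid dendritic cells 1 of 78 members fell, Cox6a2, where 0.079% of all 8856 genes fell, that is 7 genes. From the levels given above, IFNa was lower than Control by 0.98 ± 0.17 in log2 (edgeR adjusted p = 0.02474), and both Control livers lay above the other 3. The combination, against the same Control livers, had -1.03 ± 0.22 and did not pass (edgeR adjusted p = 0.06908). Siglech, a surface marker of the class, also stood higher in Control, at 1954 and 1959 CPM against 1551 and 1621 with IFNa and 1553 with the combination, and its part in the result was not tested. Control 25 held 12 of these cells, and without IFNa 23 the adjusted p was 1.0 at a log2 change of -0.82.

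In the other 9 classes with Control and IFNa livers, 0 of 689 gene and class pairs passed (edgeR, 67 to 79 members tested per class), where 0.954% of all pairs of these classes passed in either direction. DESeq2 called 0 of them, and 21 had an unadjusted p under 0.05, 10 higher and 11 lower. The median log2 change ran from -0.43 in neutrophils, where 61 of 67 members lay below 0, to 0.15 in B cells, where 9 of 79 did.

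**Figure D5:**
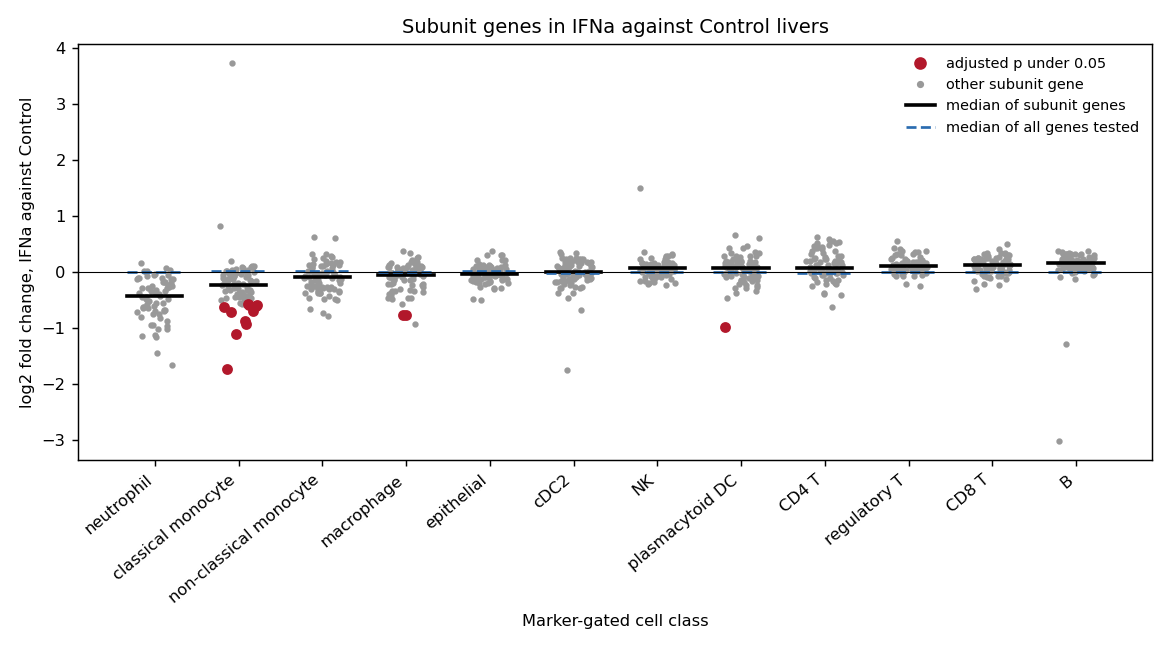
Log2 change between IFNa and Control (vertical axis) for each tested subunit gene in 12 classes, ordered by the median of the subunit genes (black bar), with the median of all genes as a dashed line and genes at an adjusted p under 0.05 in red. The 14 red points all lie below 0, 11 of them in classical monocytes, and the medians run from -0.43 in neutrophils to 0.15 in B cells.

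The difference of the IFNa effect between myeloid and lymphoid classes was tested in 1 edgeR fit. It was the mean IFNa effect of the myeloid classes minus that of the lymphoid ones, with liver as a block within group. The spread came from classes within livers, so classes of 1 liver acted as replicates. Its p-values and SE therefore do not measure how the difference varies between livers, of which each group had 2. The myeloid classes were cDC2, classical and non-classical monocytes, macrophages and neutrophils. The lymphoid ones were CD8 T, CD4 T, regulatory T, NK and B cells. Per class, the median member change was -0.43 in neutrophils and -0.23 in classical monocytes. It was -0.09 in non-classical monocytes, -0.06 in macrophages and 0.008 in cDC2, and 0.06 (NK) to 0.15 (B) in lymphoid classes. Of 79 members 17 had a lower mean effect in the myeloid classes and 0 a higher one, where 1.23% of 13585 genes were lower. The median difference was -0.31, beside -0.06 over all genes, and 76 of 79 lay below 0. In the same fit 9 of 13 mitochondrially encoded subunits were lower (median -0.58), as were 43 of 83 cytosolic ribosomal proteins (-0.39) and 2 of 78 mitochondrial ribosomal proteins (-0.28). The 17 comprised 6 genes of complex I, 3 of complex III, 3 of complex IV and 5 of complex V, with 0 of the 4 complex II genes.

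Ndufa4 showed the largest difference, -0.70 ± 0.12 (edgeR adjusted p = 0.001453). In classical monocytes it had 335 and 280 CPM without IFNa and 198 and 217 with it, and in regulatory T cells 187 and 225 without and 292 and 297 with it, so the groups were apart in opposite directions. Neither class passed alone, with adjusted p of 0.06187 and 0.4696. Ndufb5 followed at -0.65 ± 0.12 and Ndufb6 at -0.63 ± 0.14. Atp5g2 and Ndufa11, 2 genes with an NRF1-type motif in the windows shown, had -0.47 ± 0.10 and -0.53 ± 0.12, and Uqcrh had -0.45 ± 0.10. Without IFNa 18 the count of 17 became 0, without IFNa 23 it was 4 and without Control 11 it was 8.

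The combination was set against the same 2 Control livers, so the 2 comparisons are not independent. With its 1 library assumed to vary like the others, 2 of 81 members fell in classical monocytes, where 1.67% of all 11630 genes fell. Cox7a2l had a log2 change of -0.88 ± 0.18 (edgeR adjusted p = 0.02127), beside -1.10 for IFNa alone, and Ndufb5 one of -0.80 ± 0.19 (adjusted p = 0.04152), beside -0.87. Neither passed without Control 11, at adjusted p of 0.1077 and 0.1699. In the other 11 classes 0 of 847 pairs passed by edgeR and 0 by DESeq2, where 1.98% of all pairs passed in either direction, and 53 had an unadjusted p under 0.05, 25 higher and 28 lower.

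Other lists were counted in the same classical monocyte comparison, where 2.99% of all genes fell and 6.28% rose. Of 13 subunits encoded by the mitochondrial genome 2 (15.4%) fell, beside 13.6% of the members tested, namely mt-Cytb (-0.82 ± 0.18) and mt-Nd5 (-0.74 ± 0.19), with a median of -0.51. Of 13 tricarboxylic acid cycle genes 1 fell, Fh1, the fumarase (-0.81 ± 0.15). Of 78 mitochondrial ribosomal protein genes 1 fell, Mrpl9 (-0.65 ± 0.15). Among 15 glycolysis genes tested 2 rose, the hexokinases Hk2 (0.83 ± 0.15) and Hk3 (0.69 ± 0.14), and 0 fell. The 44 assembly factors and 9 regulators tested gave 0 calls in edgeR, with 7 and 1 at an unadjusted p under 0.05. Cytosolic ribosomal proteins, the housekeeping comparison, had 44 of 83 lower with a median of -0.65, and took 14.4% and 12.8% of UMIs in Control against 8.47% and 8.47% in IFNa. As a check of the labels, 11 of 12 interferon response genes rose in this class (median log2 change 3.10).

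Subunits encoded in the mitochondria took a smaller part relative to the nuclear ones with IFNa in most classes. The ratio of nuclear to mitochondrially encoded subunit UMIs was 1.41 and 1.22 in Control macrophages, 2.16 and 2.48 in IFNa and 2.44 in the combination. In cDC2 it was 1.72 and 1.56 against 2.29 and 2.29, and in B cells 0.634 and 0.558 against 0.702 and 0.710. Both IFNa livers lay above both Control livers in 9 of the 12 classes with all 4 livers, and the groups overlapped in the other 3, classical monocytes (1.63 and 1.61 against 1.58 and 2.08), regulatory T cells and epithelial cells. In macrophages 11 of the 13 mitochondrially encoded genes fell, led by mt-Nd3 at -1.33 ± 0.23, from 117 and 205 CPM in Control to 69.4 and 58.6 in IFNa. The cell filter itself removes cells with over 15% mitochondrial UMIs, and its part in these ratios was not tested.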

How the data were processed

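The authors deposited UMI count matrices per library, made with Cell Ranger 7.0.1 against mm10 per the submitters' processing notes; the values are raw gene counts, with T cell receptor contigs beside them. The members and all lists were chosen with earlier results of these data known. Barcodes under 200 genes or over 15% mitochondrial UMIs were dropped and the rest gated on a fixed number of detected markers, and cells passing several gates were left out in place of a doublet caller. Counts were summed per liver and class with at least 10 cells. edgeR 4.0.16 (quasi-likelihood, filterByExpr, TMM) in R 4.3.3 was fitted over all genes with Benjamini-Hochberg adjustment, and the fit was tested on simulated data. Class contrasts had the liver as a block, and the spread of a gene was shared by all classes and treatments. Shares and motif matches were computed in Python 3.11.15. Alternatives were DESeq2 1.42.0, RLE scaling, other filters, gates and depth windows, a depth covariate and leaving out each liver. Removing dividing cells, removing Ly6c2 from the gate and removing immunoglobulin UMIs were chosen after seeing the data. Genes named by rule were the isoform pairs and core subunits, up to 3 members each way per class and up to 4 per class and treatment comparison. The latter were taken by size of the change among those past an adjusted p of 0.05 with at least 20 CPM on the higher side. Atp5f1, Atp5c1, Ndufa6 and Ndufb10 in classical monocytes, and genes of the myeloid against lymphoid test, are named beyond that rule. Cox6b2 in monocytes lies below that level and is named as an isoform, and Cox6a2 there was named after its value was seen. Reads shared with paralogues or pseudogenes (Uqcrh, the Atp5g genes, Ndufb1-ps) were not tested. Totals per library limit precision as given with the samples. 1 member counted in the totals is not reported here by name and is left out of the figures that print gene names.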

Additional observations from a re-analysis of the deposited data

Results flagged for a closer look

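The difference between the mean myeloid and the mean lymphoid IFNa effect passed the edgeR test for 17 subunit genes, each with a lower mean in myeloid classes. Classes of 1 liver acted as replicates in that test. In complex I the log2 differences were -0.70 for Ndufa4, -0.65 for Ndufb5, -0.63 for Ndufb6, -0.57 for Ndufb11, -0.53 for Ndufa11 and -0.37 for Ndufa3. In complex III they were -0.54 for Uqcrfs1, -0.45 for Uqcrh and -0.44 for Uqcrb. In complex IV they were -0.51 for Cox7a2l and -0.50 for both Cox7b and Cox6c. In complex V they were -0.50 for Atp5g3 and Atp5mpl, -0.47 for Atp5g2, -0.45 for Atp5f1 and -0.35 for Atp5l.

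The summed share moved in opposite directions between some classes, with both IFNa livers on 1 side of both Control livers in each class listed here. For 2 against 2 livers such a separation has an exact permutation p of 0.333 in any 1 class. The ratio of IFNa to Control was 1.1 in CD4 T cells and 1.08 in B cells, against 0.819 in classical monocytes, 0.913 in non-classical monocytes and 0.714 in neutrophils. Neutrophils rested on 26 cells in Control 25 and 22 in IFNa 23. From 3000 to 10000 UMIs their shares in Control 11 and IFNa 23 nearly met, at 1.454% and 1.433%, the latter from 12 cells. The difference in the summed share between classes was not tested.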

How the results depend on the processing

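No paired analysis was possible because the livers of different groups share no replicate number. No gene that passed a treatment test or the myeloid against lymphoid test changed direction under these settings. Most named class differences were not followed gene by gene through them. The IFNa over Control share ratios of classes whose groups overlapped lay on both sides of 1, from 0.926 to 1.06 in macrophages (1.06 in cells of 3000 to 10000 UMIs), 0.952 to 1.07 in epithelial cells, 0.978 to 1.03 in cDC2 and 0.959 to 1.03 in plasmacytoid dendritic cells. Over all classes 261 members were higher and 259 lower than the other classes. In cells of 3000 to 10000 UMIs these counts were 151 and 153, and leaving out single livers gave 228 to 271 and 213 to 246. The 14 falls with IFNa became 7 with a depth covariate and 25, with 1 rise, with no filter on low counts. Leaving out 1 liver gave 4 (Control 11) to 19. Within classical monocytes the 11 falls became 4, 19 (with 1 rise) and, without dividing cells, 7, and 1 (Control 11) to 16 with 1 liver left out. For the combination the 2 falls became 4 in cells of 3000 to 10000 UMIs, 4 without Ly6c2 in the gate and 4 with no filter, and 3 to 7 with 1 liver left out. Its 0 rises became 1 with the depth covariate, 1 with no filter and 0 to 4 with 1 liver left out, highest without Control 11. The 17 genes with a lower myeloid effect became 8 in cells of 3000 to 10000 UMIs, 32 without Ly6c2 in the gate and 0 (without IFNa 18) to 18. The B cell share over the mean of classes was 0.846 without mitochondrial, ribosomal and haemoglobin UMIs. The epithelial one was 1.47 by that denominator, 1.22 as a mean over cells, 1.20 in cells of 3000 to 10000 UMIs and 1.17 without dividing cells. Beyond the numbers of samples and genes these settings use, the cause was not tested. Each group has at most 2 livers, and some pools hold few cells, such as 12 plasmacytoid dendritic cells in Control 25 and 12 neutrophils in the combination.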
